A study of Homo sapiens with 9 samples.

Results

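The genes described here encode the proteins of the mitochondrial ribosome. They were chosen by symbol: every gene of the array table whose probe set carries a single symbol starting with MRPL or MRPS and a digit, without pseudogenes. A probe set is the group of array probes that measures 1 transcript, and a gene with several was represented by the one with the highest mean. This gave 73 of the 18417 single-symbol genes, 48 named MRPL and 25 named MRPS. RefSeq lists 77 protein-coding genes with such symbols. The other 4, MRPL51, MRPS24, MRPS28 and MRPS6, lie on probe sets with several symbols and were not analysed here.

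RNA was measured on 9 Affymetrix human gene arrays of T47D, an established line of luminal breast cancer cells that carries progesterone receptor. All 9 samples carried a retroviral vector, pHUSH-Elf5-shRNA. Doxycycline switches on its hairpin RNA, which targets the messenger RNA of ELF5, an ETS transcription factor. All samples were grown with insulin, penicillin, streptomycin and gentamicin. The vehicle group (n = 3) received ethanol only. The progestin group (n = 3) received 10 nM ORG2058, a synthetic progestin, for 4 days. The third group (n = 3) received 10 nM ORG2058 and 0.1 µg/ml doxycycline for 4 days, a condition meant to hold ELF5 down while the progestin acts. Each sample was pooled from 3 wells. Experiments were independent according to the design text. The p-values rest on how much these arrays spread. No group received doxycycline alone, so an effect of doxycycline itself and one of the hairpin cannot be told apart. The labels give neither the time in culture of the vehicle samples nor a batch, so a difference in either that coincides with a group cannot be told apart from the treatment.

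The mitochondrial ribosome sits in the mitochondrial matrix and makes the few proteins encoded by mitochondrial DNA, all of them parts of the respiratory chain and the ATP synthase. Its RNAs come from mitochondrial DNA, but all of its proteins are encoded in the nucleus, made in the cytosol and imported. Some descend from bacterial ribosomal proteins and others are found only in mitochondria. Its bacterial ancestry is the reason that tetracyclines such as doxycycline are known to inhibit it, which is background to the third group and was not measured by these arrays.

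ELF5, the gene the hairpin targets, was at 10.17 ± 0.109 (SD, log2 array value, n = 3) with vehicle, 11.28 ± 0.0455 with progestin and 10.42 ± 0.0608 with progestin and doxycycline. It rose by 1.11 on the log2 scale with progestin (adjusted p = 2.06e-05) and fell by 0.87 when doxycycline was added (adjusted p = 0.029). With 1 array left out, that second change stayed between -0.89 and -0.83, while its adjusted p went from 0.0263 without vehicle replicate 3 to between 0.0715 and 0.149 without any 1 of the other 8 arrays. The call was also lost in a fit of the 2 treated groups alone (adjusted p = 0.175) and with the replicate number as a block (adjusted p = 0.203). All 9 luminal and T47D markers, among them KRT8, GATA3 and ESR1, were above the median of the probe sets tested. Of the markers of other cell types, 1 of 6 for fibroblasts (COL1A1, 8.05 to 8.65 over the arrays), 1 of 4 for endothelium (CDH5, 9.02 to 9.48), 1 of 4 for leukocytes (CD14, 7.05 to 7.75) and 1 of 2 for basal cells (KRT14, 7.51 to 8.20) had a mean above that median. The others were below it, PTPRC of leukocytes at 3.00 to 4.14 and PECAM1 of endothelium at 5.68 to 6.11. The summed level of the fibroblast markers was 9.10 to 9.33 with vehicle, 8.84 to 9.01 with progestin and 8.98 to 9.15 with doxycycline added; that of the endothelial markers was 9.33 to 9.47, 9.55 to 9.76 and 9.54 to 9.70. In the same order, the leukocyte markers summed to 8.25 to 8.53, 8.55 to 8.66 and 8.09 to 8.64, and the basal markers to 8.19 to 8.47, 8.35 to 8.66 and 8.33 to 8.61. Their part in the results was not tested.

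The values of the mitochondrial ribosomal protein genes lay between 6.03 and 11.28 (log2). None of the 73 was among the dimmest 25% of the 21214 named probe sets tested, and 69 had a mean above the median. All probe sets, as a background, thus include many that are dimmer than these genes. Levels of different probe sets depend on their probes, so each gene was compared only with itself. The arrays shifted many of these genes together within a group. Vehicle replicate 3 was the lowest of the vehicle arrays for 65 of the 73 genes (89.0%), against 49.9% of all probe sets tested. Progestin replicate 2 was the lowest of its group for 44 (60.3%, against 44.6%), and replicate 3 of the progestin and doxycycline group for 51 (69.9%, against 36.7%). Respiratory chain genes had the same low vehicle array for 68 of 79 (86.1%), and cytosolic ribosomal protein genes for 41 of 58 (70.7%). The median over the 73 genes was 9.30, 9.30 and 9.14 on the 3 vehicle arrays, 9.18, 9.08 and 9.15 on the progestin arrays, and 9.12, 9.19 and 9.05 with doxycycline added. The lowest vehicle array lay below the highest array of both treated groups, so the group medians overlapped. The genes therefore do not move independently of each other from array to array, and a count over them is a description and not a test.

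With progestin, a minority of the mitochondrial ribosomal protein genes was called in the main fit, mostly downward and with small changes. Of 73, 16 fell and 5 rose at an adjusted p of 0.05, a total of 28.8%, against 29.0% of all probe sets tested. The total is thus at the background with these settings, though not under all others tried. With these settings the directions were unequal, since 21.9% of the genes fell, against 15.6% of all probe sets, and 6.85% rose, against 13.4%. The excess of falls depended on the arrays and settings used. Without vehicle replicate 1 the share that fell was 12.3%, against 11.2%. With all arrays, the change was negative in 57 of the 73 genes, against 48.0% of all probe sets. The median log2 change was -0.14, against 0.02 over all probe sets, and changes ranged from -0.51 to 0.33, so that none reached 2-fold. The 95% interval of the change lay within 0.5 of 0 for 56 of the 73. The groups did not overlap for 26 genes that were lower with progestin and 8 that were higher, against 21.5% and 20.8% of all probe sets. In a culture of 1 line, fewer cells with a transcript and less of it per cell cannot be told apart.

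**Figure D1:**
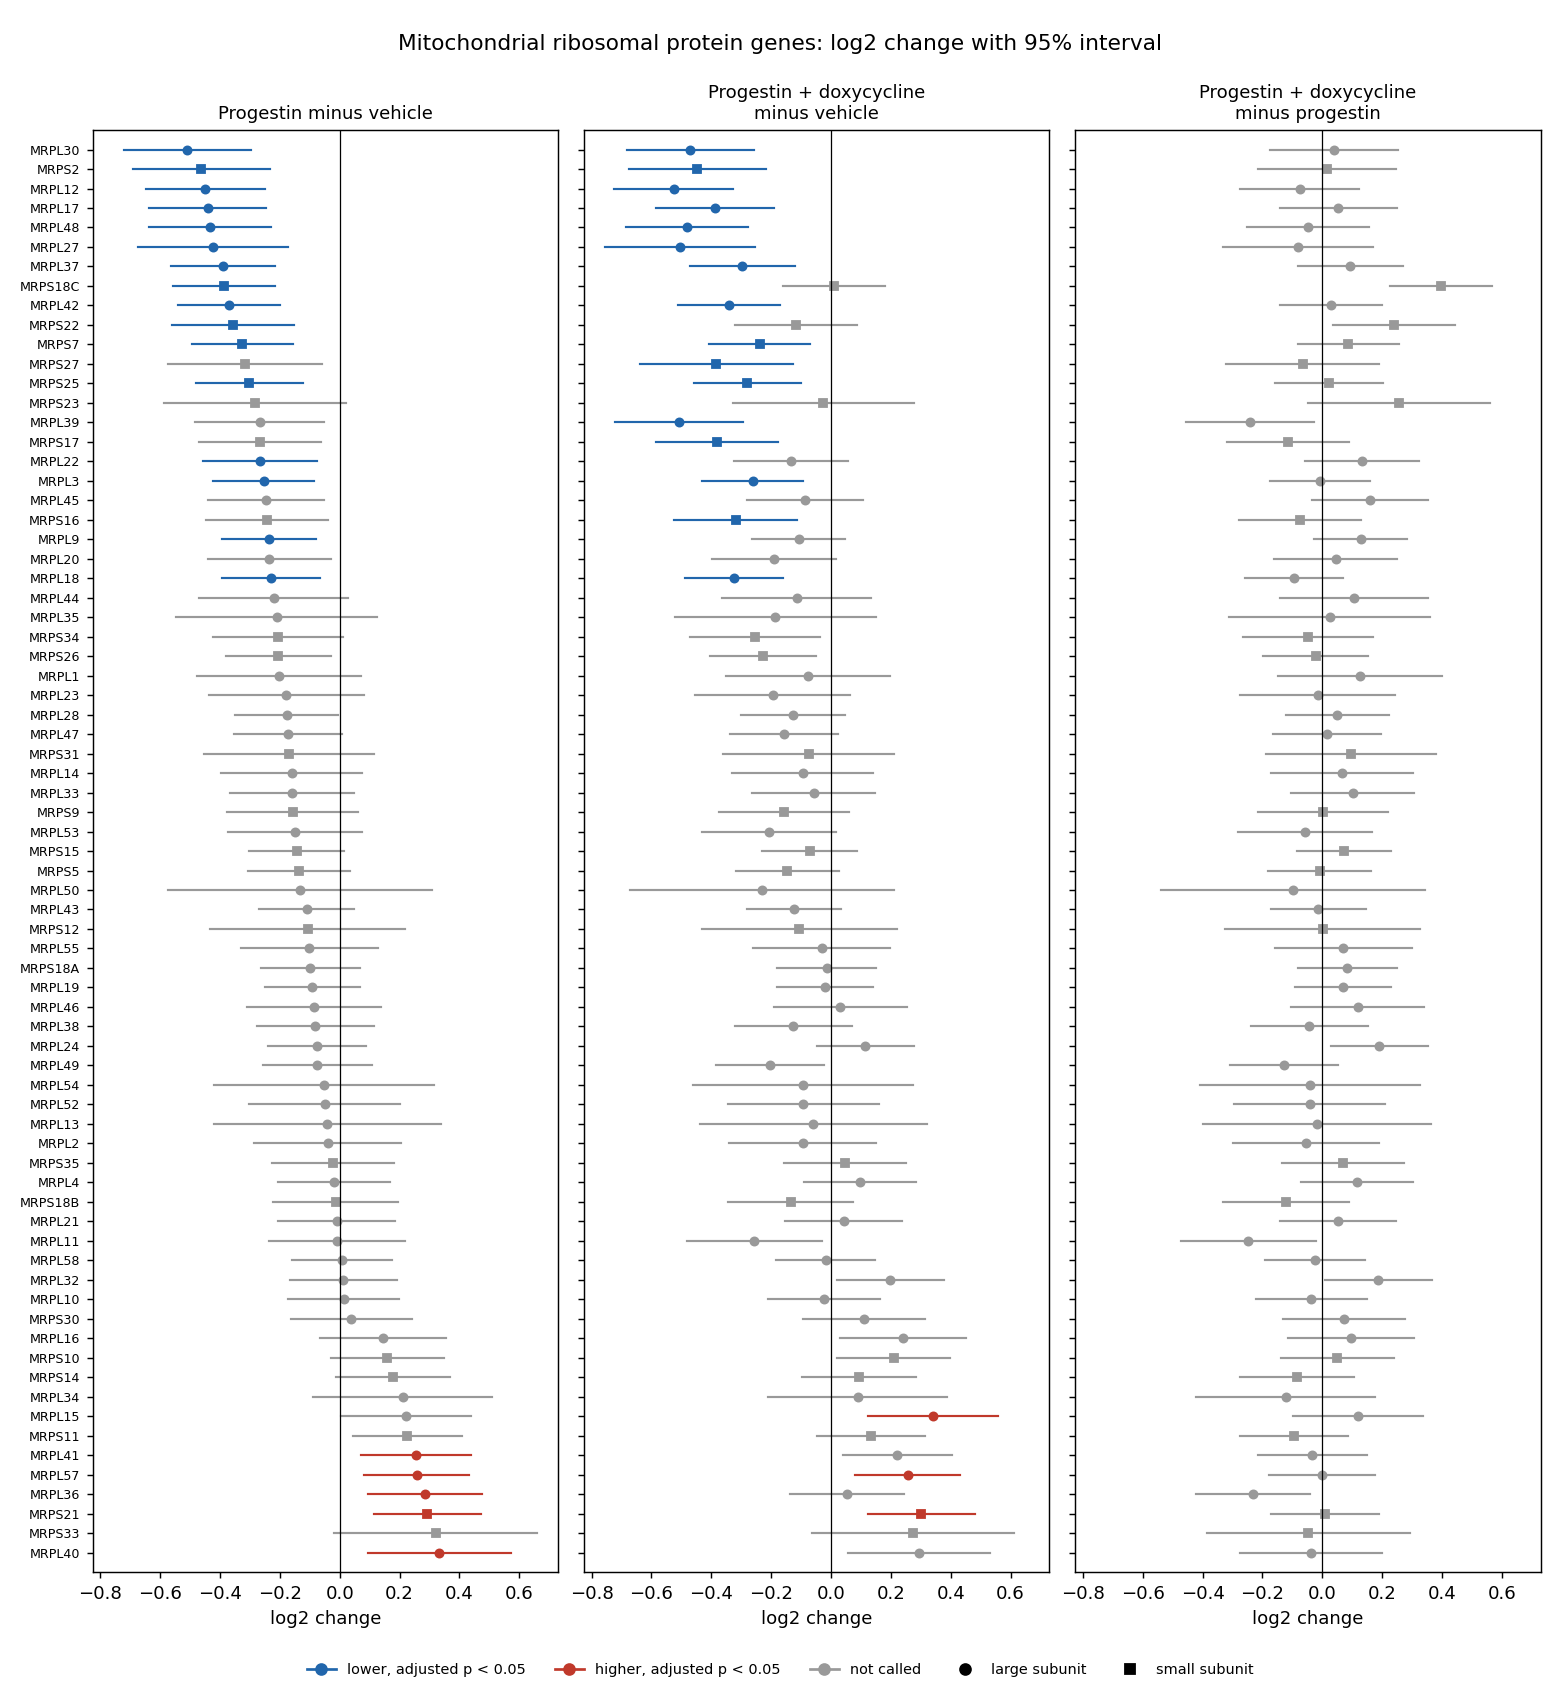
Log2 change (x axis) of each of the 73 mitochondrial ribosomal protein genes (y axis, ordered by the change with progestin) in the 3 comparisons, with 95% intervals from limma; blue and red mark adjusted p under 0.05, circles the large and squares the small subunit. Most changes with progestin lie left of 0, between -0.51 and 0.33, and 0 of the 73 genes is coloured where doxycycline was added to progestin.

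The lowest change was that of MRPL30, a large subunit protein with a bacterial relative. Its log2 values were 9.01, 9.02 and 8.86 with vehicle, 8.56, 8.42 and 8.39 with progestin, and 8.38, 8.63 and 8.47 with doxycycline added. Every vehicle array was above every treated array. MRPL30 fell by 0.51 on the log2 scale with progestin (SE 0.09, adjusted p = 0.00392), which is 1.42-fold. MRPS2, a small subunit protein of bacterial descent, read 9.51, 9.56 and 9.29 with vehicle, 8.91, 8.98 and 9.08 with progestin, and 8.98, 9.14 and 8.90 with doxycycline added. It fell by 0.46 (SE 0.10, adjusted p = 0.00902), and again no treated array reached the lowest vehicle array.

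MRPL12 belongs to the flexible stalk of the large subunit, which recruits translation factors, and has also been described to bind the mitochondrial RNA polymerase. It read 10.13, 10.11 and 9.98 with vehicle, 9.53, 9.60 and 9.74 with progestin, and 9.58, 9.61 and 9.44 with doxycycline added. The groups were apart, and MRPL12 fell by 0.45 with progestin (SE 0.09, adjusted p = 0.00519). MRPL17, another large subunit protein with a bacterial relative, read 9.56, 9.65 and 9.48, then 9.24, 9.12 and 9.0, then 9.18, 9.24 and 9.11 in the same order of groups. It fell by 0.44 (SE 0.09, adjusted p = 0.00543), with the lowest vehicle array above all 6 treated arrays.

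MRPL48, a large subunit protein found only in mitochondria, read 9.32, 9.36 and 9.14 with vehicle, 8.94, 8.72 and 8.86 with progestin, and 8.75, 8.86 and 8.77 with doxycycline added. It fell by 0.43 with progestin (SE 0.09, adjusted p = 0.00711). MRPL27, whose bacterial relative lies close to the site where peptide bonds form, read 8.95, 9.07 and 8.81 with vehicle, 8.68, 8.56 and 8.32 with progestin, and 8.46, 8.49 and 8.37 with doxycycline added. It fell by 0.42 (SE 0.11, adjusted p = 0.0204). Its progestin arrays were the most spread of these 6 genes (SD 0.181), and its adjusted p rose to 0.0722 at most when 1 array was left out.

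The other 10 genes that fell were smaller in effect. In the large subunit they were MRPL37 (-0.39), MRPL42 (-0.37), MRPL22 (-0.27), MRPL3 (-0.25), MRPL9 (-0.24) and MRPL18 (-0.23), of which MRPL22 and MRPL3 have bacterial relatives that line the exit tunnel and reach towards the catalytic centre, respectively. In the small subunit they were MRPS18C (-0.39), MRPS22 (-0.36), MRPS7 (-0.33), an early binder of the small ribosomal RNA in bacteria, and MRPS25 (-0.30). Of the 16 genes, 9 stayed past the threshold whichever array was left out and under each other setting tried. They were MRPL30, MRPS2, MRPL12, MRPL17, MRPL48, MRPL37, MRPS18C, MRPL42 and MRPS7.

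The 5 genes that rose were MRPL40, MRPS21, MRPL36, MRPL57 and MRPL41, and 0 of them kept its call through every array left out. MRPL40, a large subunit protein found only in mitochondria, read 7.36, 7.41 and 7.11 with vehicle, 7.59, 7.55 and 7.74 with progestin, and 7.53, 7.70 and 7.53 with doxycycline added. The groups were apart, and it rose by 0.33 (SE 0.10, adjusted p = 0.043). MRPS21, a small subunit protein with a bacterial relative, read 9.47, 9.45 and 9.44, then 9.83, 9.61 and 9.79, then 9.73, 9.82 and 9.70. It rose by 0.29 (SE 0.08, adjusted p = 0.0238), against vehicle arrays that differed from each other by little (SD 0.0152).

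MRPL36, among the smallest proteins of the large subunit, read 10.45, 10.49 and 10.70 with vehicle and 10.83, 10.77 and 10.89 with progestin. It rose by 0.29 (SE 0.08, adjusted p = 0.0327), and its second probe set, with vehicle values of 9.66, 9.70 and 9.63 and progestin values of 9.92, 9.81 and 9.95, rose by 0.23 (adjusted p = 0.0479). MRPL57, a large subunit protein found only in mitochondria, read 9.22, 9.10 and 9.14 with vehicle, 9.46, 9.35 and 9.42 with progestin, and 9.48, 9.45 and 9.29 with doxycycline added. It rose by 0.26 (SE 0.08, adjusted p = 0.0369). MRPL41, also specific to the mitochondrial large subunit, read 9.27, 9.26 and 9.08, then 9.50, 9.37 and 9.51, then 9.46, 9.45 and 9.37. It rose by 0.25 (SE 0.08, adjusted p = 0.0437). For each of the 5, the highest vehicle array was below the lowest progestin array.

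**Figure D2:**
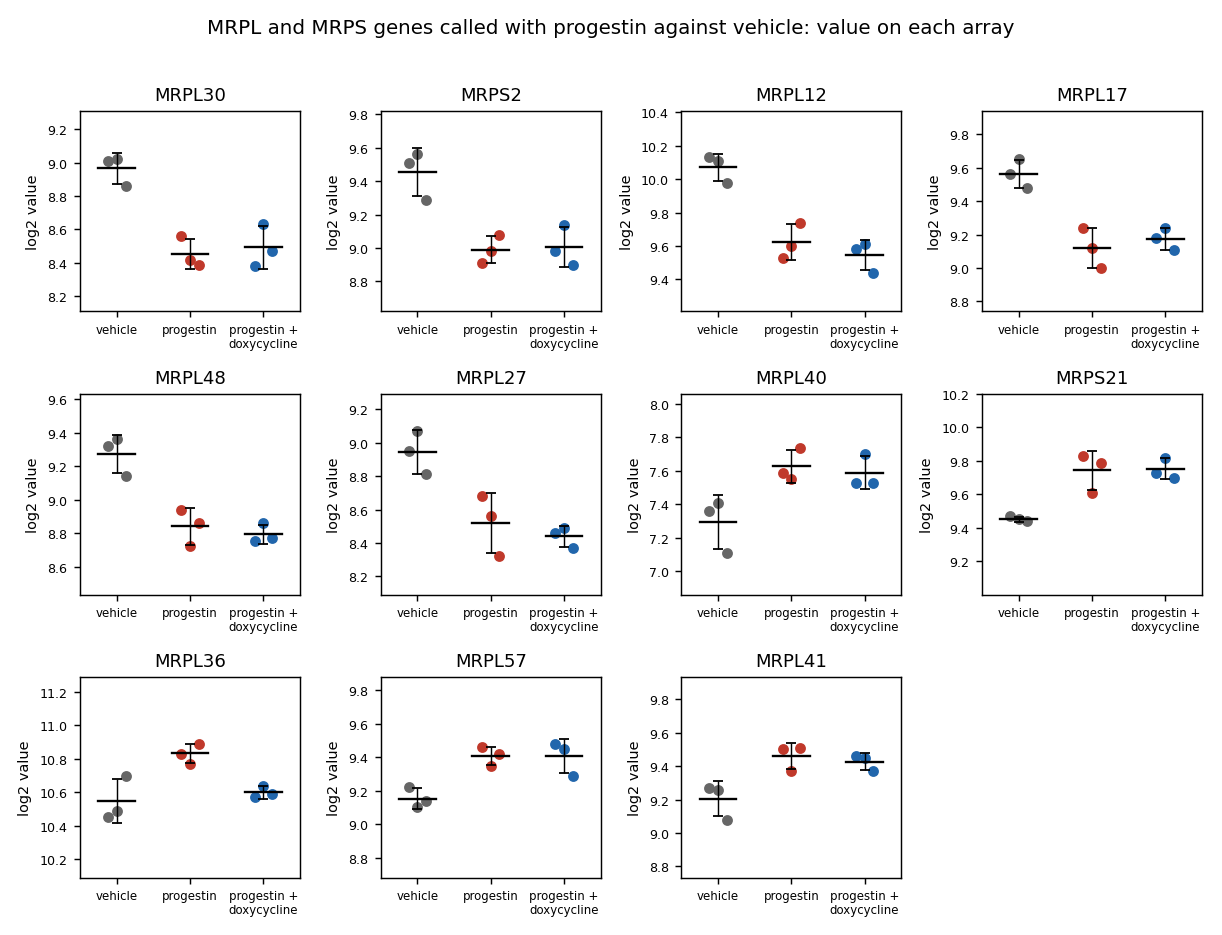
Log2 array values (y axis) of the 6 genes with the lowest and the 5 with the highest change among those called with progestin, by group (x axis); each point is 1 array, the bar is the mean and the whiskers are 1 SD (n = 3). The progestin arrays lie apart from the vehicle arrays in all 11 panels, below them in the first 6 and above them in the other 5.

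The count of calls depended on which arrays were used. It was 9 without vehicle replicate 1 (12.3%, against 21.8% of all probe sets) and 10 without vehicle replicate 2 (13.7%, against 22.7%). It was 12 without progestin replicate 1 (16.4%, against 23.1%) and 12 without progestin replicate 2 (16.4%, against 24.1%). Leaving out replicate 1 of the progestin and doxycycline group, which adds to the estimate of the spread, gave 13 (17.8%, against 26.6%). Without vehicle replicate 3, the low array, 19 genes fell and 2 rose (28.8%, against 28.8%), with a median of -0.19. After quantile normalization 15 fell and 8 rose (31.5%, against 31.5%). Without the dimmest 25% of probe sets 21 fell and 6 rose (37.0%, against 41.1%). The total was below the share of all probe sets in a fit of the 2 groups alone (15.1%, against 25%). It was above that share with array weights (57.5%, against 44.8%), so its place relative to the background depended on the setting. By direction, 9 fell without vehicle replicate 1, against 11.2% of all probe sets, and 0 rose, against 10.6%. The fit of the 2 groups alone had 11 that fell (15.1%, against 13.7%) and 0 that rose, against 11.3%. Quantile normalization left falls at 15 of 73, against 16.9%, and rises at 8, against 14.6%. Array weights gave 33 falls, against 22.7%, and 9 rises, against 22.1%.

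Genes of both subunits were among those called. By the current structural assignment, 50 of the 73 proteins lie in the large subunit, MRPS30 and MRPS18A included, and 23 in the small subunit. With progestin, 11 of the 50 large subunit genes fell and 4 rose, with a median change of -0.11. Of the 23 small subunit genes 5 fell and 1 rose, with a median of -0.17. Of the 41 genes with a bacterial relative 11 fell and 2 rose (median -0.16), and of the 29 specific to mitochondria 5 fell and 3 rose (median -0.15). The remaining 3, MRPL55, MRPS18A and MRPS18B, were not assigned to either class, and 0 of them was called. The totals of both subunits, and of the bacterial and mitochondria-specific genes, were near the 29.0% of all probe sets. The difference between these classes was not tested.

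Adding doxycycline to the progestin changed the genes of the mitochondrial ribosome by less than the test could call. Of 73 genes, 0 passed an adjusted p of 0.05 in limma, against 0.0189% of all probe sets, which is 4 of 21214. At an unadjusted p of 0.05 there were 7 of 73, against 14% of all probe sets. The change was negative in 34 genes and positive in 39, against 43.9% negative among all probe sets, with a median of 0.01, against 0.03 over all probe sets. Quantile normalization turned that balance to 47 negative, with a median of -0.03, so no direction of the genes as a group was settled. The 95% interval of the change lay within 0.5 of 0 for 70 of the 73 genes. The groups did not overlap for 9 genes that were higher and 2 that were lower with doxycycline, against 14.8% and 6.43% of all probe sets.

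MRPS18C had the smallest p. It is 1 of 3 mitochondrial relatives of the bacterial protein S18, and the one placed in the small subunit at the bacterial position. Its values were 7.57, 7.45 and 7.39 with vehicle, 7.04, 7.04 and 7.15 with progestin, and 7.52, 7.48 and 7.43 with doxycycline added. All 3 progestin arrays were below the other 6, and the other 2 groups overlapped. MRPS18C fell by 0.39 with progestin (SE 0.07, adjusted p = 0.00512). With doxycycline added it was 0.40 higher than with progestin alone (SE 0.07, unadjusted p = 0.000625, adjusted p = 0.12), and 0.01 from vehicle (95% interval -0.16 to 0.18). That adjusted p ranged from 0.0484, without the dimmest 25% of probe sets, to 0.37, without replicate 2 of the progestin and doxycycline group, and the former was the only setting that called it.

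MRPL36 came next, with doxycycline values of 10.57, 10.64 and 10.59 that lay below its 3 progestin arrays and within the range of its vehicle arrays. The difference from progestin was -0.23 (SE 0.08, unadjusted p = 0.0224, adjusted p = 0.282). Its second probe set read 9.80, 9.90 and 9.73 with doxycycline added, which overlaps the progestin arrays, with a difference of -0.08 (adjusted p = 0.676). The 2 probe sets thus differ in size here. MRPS22, a mitochondria-specific small subunit protein, read 9.15, 9.17 and 8.95 with vehicle, 8.75, 8.65 and 8.79 with progestin, and 8.99, 9.05 and 8.87 with doxycycline added. It was 0.24 higher with doxycycline than without (SE 0.09, unadjusted p = 0.0267, adjusted p = 0.299).

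MRPL24, a large subunit protein with a bacterial relative, read 9.82, 9.85 and 9.69 with vehicle, 9.78, 9.67 and 9.69 with progestin, and 9.90, 9.92 and 9.88 with doxycycline added. It was 0.19 higher with doxycycline than without (SE 0.07, unadjusted p = 0.0268, adjusted p = 0.299) and was not called with progestin. The remaining genes with an unadjusted p under 0.05 were MRPL39 (-0.24), MRPL11 (-0.25) and MRPL32 (0.19).

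**Figure D3:**
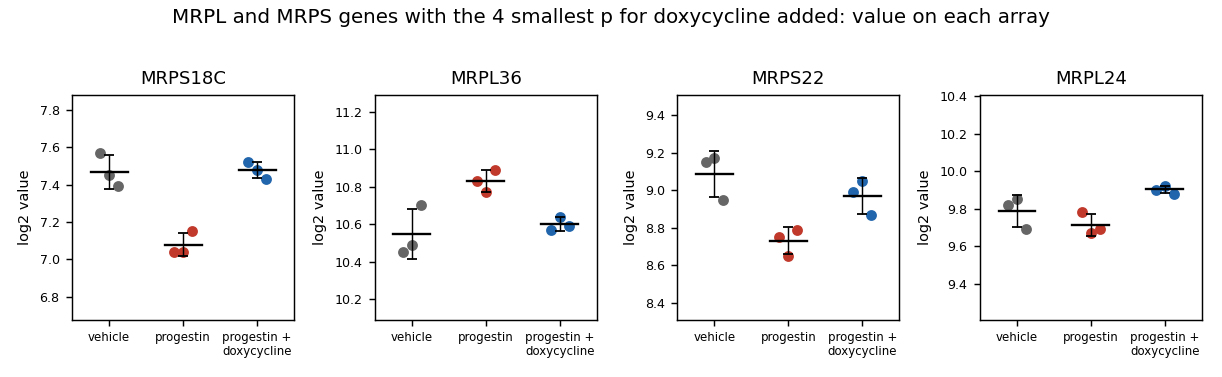
Log2 array values (y axis) of the 4 genes with the smallest p for doxycycline added to progestin, by group (x axis); each point is 1 array, the bar is the mean and the whiskers are 1 SD (n = 3). In MRPS18C the progestin arrays, 7.04 to 7.15, lie below all 6 others, and none of the 4 differences between the treated groups passed an adjusted p of 0.05.

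The group given progestin and doxycycline was also set against vehicle. This comparison uses the same vehicle arrays as the first, so the values are given side by side and are not 2 separate results. Of the 73 genes, 16 fell and 3 rose, a total of 26.0%, against 28.1% of all probe sets. The share that fell was 21.9%, against 12.5% of all probe sets, and the share that rose 4.11%, against 15.6%. The median change was -0.11, against 0.02, with a range of -0.53 to 0.34. The groups did not overlap for 22 genes that were lower and 10 that were higher, against 18.4% and 23.5% of all probe sets. The count of calls was 10 without vehicle replicate 1 (13.7%, against 22.7% of all probe sets) and 11 without vehicle replicate 2 (15.1%, against 23.3%). It was 10 without replicate 1 of the group with doxycycline (13.7%, against 23.5%) and 12 without replicate 3 of that group (16.4%, against 23.4%). After quantile normalization 19 fell and 7 rose (35.6%, against 31.0%). Without the dimmest 25% of probe sets 18 fell and 5 rose (31.5%, against 39.4%).

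Gene by gene, 12 genes fell in both comparisons with vehicle and 2, MRPL57 and MRPS21, rose in both. The share of all probe sets called in both comparisons was not counted. Whether such agreement is particular to these genes therefore cannot be told. MRPS18C, MRPS22, MRPL22 and MRPL9 fell with progestin and were not called with doxycycline added. MRPL41, MRPL36 and MRPL40 rose with progestin and were not called with doxycycline added. MRPS27, MRPL39, MRPS17 and MRPS16 fell, and MRPL15 rose, with doxycycline added and were not called with progestin alone. The direct comparison of the treated groups called 0 of these 12 genes, so none was shown to differ between them. MRPL39, a mitochondria-specific large subunit protein, was lower in each successive group, with values of 9.34, 9.40 and 9.23 with vehicle, 9.18, 9.02 and 8.96 with progestin, and 8.87, 8.89 and 8.68 with doxycycline added. The 3 groups did not overlap. MRPL39 fell by 0.51 against vehicle with both agents (SE 0.09, adjusted p = 0.00397), was at -0.27 with progestin alone (adjusted p = 0.0651), and differed by -0.24 between the treated groups (adjusted p = 0.314).

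Further genes of mitochondrial translation were described from lists. Of 4 mitochondrial ribosomal proteins under other symbols, PTCD3 of the small subunit fell with progestin by 0.63 (SE 0.07, adjusted p = 0.000247), while DAP3, CHCHD1 and GADD45GIP1 were not called. Of 26 genes for assembly of the ribosome and modification of its RNAs, 5 fell and 0 rose, with a median of -0.04. The total of 19.2% called was below the 29.0% of all probe sets. The genes that fell included METTL17, an assembly factor (-0.36, adjusted p = 0.0123), DHX30, an RNA helicase (-0.32, adjusted p = 0.0183), and METTL15, a methyltransferase of the small ribosomal RNA (-0.61, adjusted p = 0.027). Of 15 translation factors and mRNA handling genes 3 fell and 1 rose (26.7%, median -0.15).

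LRPPRC and SLIRP form the complex that stabilises mitochondrial messenger RNAs. LRPPRC was at 10.70 ± 0.0191 (SD, n = 3) with vehicle, 9.94 ± 0.00796 with progestin and 10.11 ± 0.0352 with doxycycline added, and fell by 0.76 with progestin (SE 0.06, adjusted p = 3.46e-05). SLIRP fell by 0.24 (adjusted p = 0.0237), MTRFR, a ribosome rescue factor, by 0.37 (adjusted p = 0.0224), and the initiation factor MTIF3 rose by 0.26. Of 19 mitochondrial aminoacyl-tRNA synthetases, SARS2 fell by 0.59 (adjusted p = 0.000859) and MARS2 rose by 0.55 (adjusted p = 0.0112). The total called was 10.5% of that list, against 29.0% of all probe sets. Of 9 genes for mitochondrial DNA and its transcription, TFAM, which packages mitochondrial DNA and starts its transcription, fell by 0.68 (adjusted p = 0.000586). It was the only gene of its list called (11.1%, against 29.0%). No gene encoded by mitochondrial DNA was on a named probe set, so the products of this machinery were not analysed here.

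Of 9 nuclear regulators of mitochondrial genes, both subunits of the ETS factor GABP fell with progestin, GABPB1 by 0.49 (SE 0.08, adjusted p = 0.00169) and GABPA by 0.51 (SE 0.13, adjusted p = 0.0207). The other 7 were not called, among them NRF1 at -0.31 (adjusted p = 0.0798) and YY1 at -0.20 (adjusted p = 0.0716). Over the 9 regulators, 6 changes were negative and 3 positive, the highest at 0.17. The total called among these regulators was 22.2%, against 29.0% of all probe sets. Of 18 mitochondrial chaperone, protease and stress genes, 3 fell and 3 rose (33.3%, against 29.0% of all probe sets). The folate enzyme MTHFD2 fell by 0.67 (adjusted p = 0.000521) and the chaperone TRAP1 by 0.57 (adjusted p = 0.000885). The secreted stress factor GDF15 rose by 1.87 (SE 0.29, adjusted p = 0.00166). Adding doxycycline called 0 genes of each of these lists.

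The cytosolic ribosome and the respiratory chain, the nearest related gene groups, are given for comparison; the differences between the lists were not tested. Of 58 cytosolic ribosomal protein genes, 32 fell with progestin and 0 rose, with a median of -0.24. The share that fell was 55.2%, against 15.6% of all probe sets. RPL7 fell by 0.52, RPS2 by 0.49 and RPS7 by 0.49, each with an adjusted p under that of MRPL30. Of 79 nuclear-encoded respiratory chain and ATP synthase subunits 6 fell and 1 rose, with a median of -0.02. The total was 8.86%, against 29.0% of all probe sets. CYC1, the cytochrome of the third respiratory complex, fell by 0.52 (adjusted p = 0.000488), COX8A by 0.36 (adjusted p = 0.00595), and NDUFA13 rose by 0.41 (adjusted p = 0.0105).

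**Figure D4:**
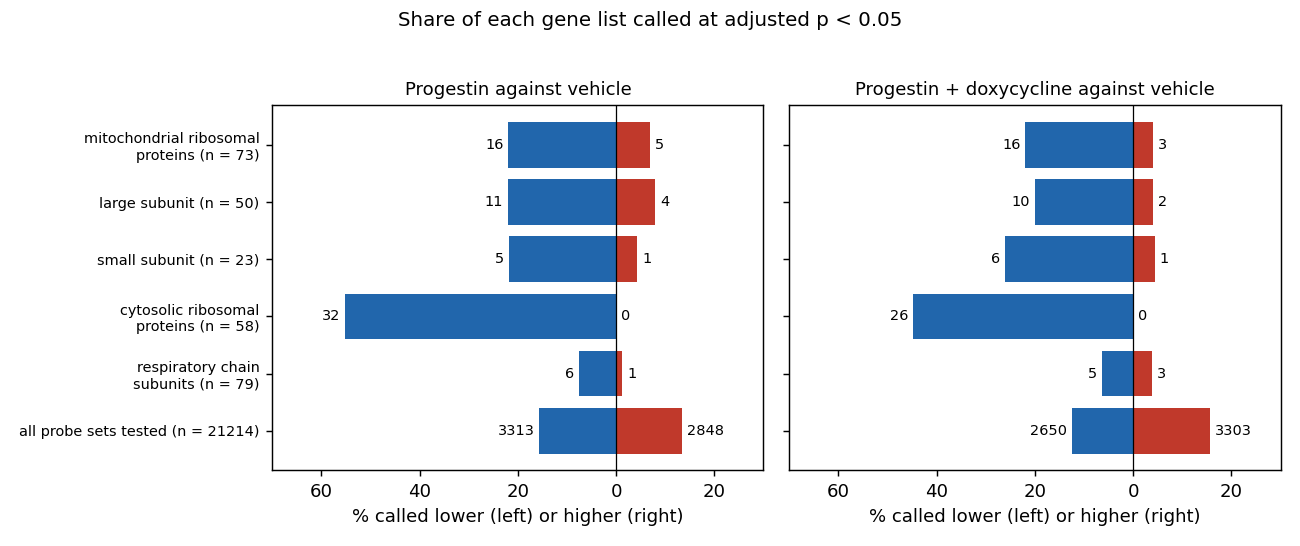
Percent of each gene list (x axis) that was lower (blue, left) or higher (red, right) at an adjusted p under 0.05 against vehicle, without and with doxycycline; numbers beside the bars are genes, or probe sets in the last row. The mitochondrial ribosomal protein genes had 16 lower and 5 higher with progestin, the cytosolic ones 32 and 0, and the respiratory chain 6 and 1.

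Promoters of the mitochondrial ribosomal protein genes were read from RefSeq on GRCh38.p14 as the 250 bases before each start site, and 66 of the 73 genes had an entry. GABP, NRF1 and YY1 are known regulators of such genes, and their cores were searched on both strands as CCGGAAG for the ETS and GABP core, CGCATGCG for the NRF1 core, with CGCANGCG as its looser form that includes it, and AAGATGGC for YY1. The shorter ETS core GGAA lies inside CCGGAAG. The following promoters show 5 genes on which the results turn: MRPL30, the largest fall; MRPS18C, the smallest p with doxycycline; MRPS21 and MRPL36, which rose; and MRPL17, chosen after the search because it holds 2 NRF1 cores. Each is written 5′ to 3′ on the gene's strand, and capitals mark matches on either strand to CCGGAAG, CGCANGCG or AAGATGGC.
MRPL30 (chr2:99180934-99181183, plus strand): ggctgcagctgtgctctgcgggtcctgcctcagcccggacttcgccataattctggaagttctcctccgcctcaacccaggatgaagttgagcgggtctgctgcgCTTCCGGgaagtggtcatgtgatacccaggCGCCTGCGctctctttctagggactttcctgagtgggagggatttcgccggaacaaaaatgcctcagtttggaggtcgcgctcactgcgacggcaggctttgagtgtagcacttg
MRPS18C (chr4:83455808-83456057, plus strand): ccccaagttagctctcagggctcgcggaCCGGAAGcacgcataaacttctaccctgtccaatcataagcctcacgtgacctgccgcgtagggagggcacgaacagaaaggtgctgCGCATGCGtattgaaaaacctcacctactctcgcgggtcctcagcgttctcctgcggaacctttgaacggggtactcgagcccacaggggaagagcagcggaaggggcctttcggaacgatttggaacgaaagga
MRPS21 (chr1:150293611-150293860, plus strand): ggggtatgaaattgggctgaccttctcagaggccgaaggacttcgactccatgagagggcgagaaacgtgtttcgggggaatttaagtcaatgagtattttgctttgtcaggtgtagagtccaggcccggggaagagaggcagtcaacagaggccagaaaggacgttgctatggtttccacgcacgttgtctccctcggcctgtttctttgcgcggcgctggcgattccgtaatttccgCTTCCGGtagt
MRPL36 (chr5:1799838-1800087, minus strand): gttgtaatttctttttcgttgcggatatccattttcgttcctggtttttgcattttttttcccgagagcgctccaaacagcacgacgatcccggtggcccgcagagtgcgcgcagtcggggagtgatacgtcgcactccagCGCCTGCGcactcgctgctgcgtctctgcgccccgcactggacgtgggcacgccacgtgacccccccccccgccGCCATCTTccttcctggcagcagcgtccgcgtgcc
MRPL17 (chr11:6683341-6683590, minus strand): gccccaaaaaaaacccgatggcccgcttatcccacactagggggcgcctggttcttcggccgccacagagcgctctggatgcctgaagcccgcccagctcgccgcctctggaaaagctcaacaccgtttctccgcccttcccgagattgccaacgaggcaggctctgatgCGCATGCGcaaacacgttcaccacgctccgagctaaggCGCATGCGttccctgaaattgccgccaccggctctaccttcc

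The ETS and GABP core CCGGAAG was found in 22 of the 66 promoters (33.3%), against 11.8% of 15842 protein-coding promoters of the same length and 28.6% of 49 cytosolic ribosomal protein promoters. YY1 letters were found in 5 (7.58%), against 1.39%. The NRF1 core was found in 3 (4.55%), against 2.49%, and its looser form in 13 (19.7%), against 12.5%. GGAA alone was in 64 of 66 (97%), but also in 92.5% of protein-coding promoters. The median GC content was 59.8% in these promoters and 62.4% in protein-coding promoters. Among the 16 genes that fell with progestin, 6 promoters held CCGGAAG (37.5%), those of MRPL30, MRPL48, MRPL27, MRPS18C, MRPS22 and MRPL3. The 3 promoters with the NRF1 core, MRPL17, MRPS18C and MRPL22, all belong to these 16. Its looser form was in 5 of the 16 (31.2%), and AAGATGGC in 0. Among the 5 genes that rose, MRPS21 and MRPL40 held CCGGAAG (40%), MRPL57 and MRPL36 the looser NRF1 form (40%), and MRPL36 also AAGATGGC. The difference between the genes that fell and those that rose was not tested. A match describes letters near an annotated start, which may not be the start used in T47D, and binding was not measured.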

How the data were processed

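The deposited table holds the authors' log2 values; that scale was read from the values. PLIER, limma, Affymetrix Expression Console and Affymetrix Power Tools are listed in the submitters' processing notes, without their steps or versions. How the arrays were normalized is not given in the sources. Of 33297 probe sets, 21214 with a symbol were tested and 19460 had a single one. limma 3.58.1 in R 4.3.3 fitted 1 mean per group over all 9 arrays with moderated variances (eBayes), and Benjamini-Hochberg adjustment ran over the 21214 probe sets at 0.05; SE is that of the log2 change. Precision is limited by the 3 arrays in a group; the smallest p of an exact permutation test between groups is 0.1. The fit was also run on simulated data in which each probe set was drawn independently. That run cannot tell how calls behave when many genes shift together on an array.

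The genes, lists and classes were chosen with earlier results of these data known. All called genes are named; every array is given for the 6 lowest and up to 6 highest called changes with progestin and for the 4 smallest p with doxycycline added. Other lists give up to 3 called genes with the smallest p; further list genes were named after their values were seen. MRPL20 had 2 probe sets and MRPS18B 3, with identical values within each gene; MRPL36 had 2 that differ. All 73 symbols matched the RefSeq gene table. Samples with the same replicate number did not deviate together in most pairs of groups. Replicates 2 and 3 of vehicle and of the group with both agents did, with correlations of 0.48 and 0.46.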

Additional observations from a re-analysis of the deposited data

How the results depend on the processing

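Of 73 genes, 21 were called with progestin (16 lower, 5 higher), 0 with doxycycline added and 19 with both against vehicle (16 lower, 3 higher). With progestin, array weights gave 42 calls (33 lower, 9 higher), 25 lower calls came with a variance trend and robust estimation, and fitting only the 2 groups compared gave 11 (11 lower, 0 higher). Higher calls numbered 8 after quantile normalization and 2 when all probe sets were tested. With both agents, array weights gave 39 calls (31 lower, 8 higher); higher calls were 7 after quantile normalization, 7 with the variance trend, 5 without the dimmest 25% of probe sets and 1 with only the 2 groups. Array weights also raised the share called over all probe sets, to 44.8% with progestin and 41.4% with both agents. Of the 73 genes they called 57.5% and 53.4%. The variance trend called 42.5% of the 73 genes with progestin, against 32.8% of all probe sets. With doxycycline added, 1 gene, MRPS18C, was called without the dimmest 25%. Over all probe sets that comparison called 4, but 530 with the variance trend, 158 without the dimmest 25%, 0 to 15 under the other settings and 0 to 2 with 1 array left out. With 1 array left out, calls with progestin ranged from 9 to 21 (lower 9 to 19, higher 0 to 4), the median change from -0.19 to -0.11. These calls were 12.3% to 28.8% of the genes, where 21.8% to 28.8% of all probe sets were called. With both agents calls ranged from 10 to 18 (lower 10 to 16, higher 0 to 2, median -0.18 to -0.07). These were 13.7% to 24.7%, where 22.7% to 27.8% of all probe sets were called. With doxycycline added the count was 0 throughout and the median -0.03 to 0.05.

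Replicate numbers did not pair the arrays throughout. Deviations of same-numbered arrays correlated between -0.26 and 0.48. The correlation was 0.48 and 0.46 for replicates 2 and 3 of vehicle and of the group with both agents. With those numbers crossed it was -0.49 and -0.51. All other same-numbered pairs lay between -0.26 and 0.11. Fitting the replicate number as a block left 14 calls with progestin (13 lower, 1 higher) and 12 with both agents (11 lower, 1 higher). Those were 19.2% and 16.4% of the 73 genes, against 25.4% and 24.7% of all probe sets in that fit. Over the single genes and all settings, 1023 kept their side of the threshold, 194 lost a call, 7 gained one and 0 reversed. Under all settings and each array left out, 9 of the 16 lower and 0 of the 5 higher calls with progestin held; 10 of 16 and 0 of 3 held with both agents. The causes were not tested.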

Other observations

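Several mitochondrial ribosomal protein genes start head to head with another gene on the opposite strand. With start sites at most 1000 bases apart, or overlapping by up to 200 bases, 17 of the 66 genes with a RefSeq promoter had such a partner, and all 17 partners were measured; this search was chosen after the data were seen. Among all 17 partners, 5 fell with progestin and 0 rose, where 15.6% and 13.4% of all probe sets did. Of the 8 genes that were called with progestin and had a partner, the partner changed in the same direction for 3. It changed in the opposite direction for 1 and was not called for 4. MITD1, the partner of MRPL30, fell by 0.56 (adjusted p = 0.00807), and TCP1, a chaperonin subunit and the partner of MRPL18, fell by 0.41 (adjusted p = 0.00158). EME1, a subunit of a DNA repair nuclease and the partner of MRPL27, fell by 1.69 (SE 0.12), while MRPL27 fell by 0.42. SKA3, a kinetochore protein, fell by 1.68 (SE 0.12), from 7.90 ± 0.150 to 6.22 ± 0.213 (SD, n = 3), while MRPL57 on the other strand rose by 0.26. SARS2, the mitochondrial seryl-tRNA synthetase, fell by 0.59 beside MRPS12, which was at -0.11 and not called. HELQ, CYB5RL, PIERCE1 and HIRA, the partners of MRPS18C, MRPL37, MRPS2 and MRPL40, were not called. MRPL46 and MRPS11 are partners of each other, at -0.09 and 0.23, neither past the threshold.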
